A study of Mus musculus with 19 samples.

Results

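With 7 listed transcripts left out, 692 of 96626 measured transcripts met a rule for induction in control hearts after 3 weeks of pressure overload. Of these, 328 stayed under a ratio of 1.5 in hearts that carry the JP2NT transgene. These 328 transcripts are the subject here. A transcript was chosen where its mean in banded control hearts was at least 5 TPM (an abundance scaled to transcript length and library total), where that mean was at least 2 times the control baseline mean, where every banded control library lay above every control baseline library, and where the mean of banded JP2NT-OE hearts was under 1.5 times the JP2NT-OE baseline mean. The means of all 4 groups therefore chose the members, and the values of those groups are given as descriptions without a test. Below, "induced in control" names the transcripts that met the control conditions, and the JP2NT-OE ratio is the mean TPM after banding over the mean TPM at baseline.

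Each group had 3 RNA-seq libraries of the left ventricle of mice aged 12 weeks. Control hearts lacked the transgene and came from littermates, and JP2NT-OE hearts expressed HA-tagged JP2NT from the α-MHC promoter, whose known activity is in heart muscle cells. Transverse aortic banding (TAB) was performed in 9-week males, whose left ventricles were collected after 3 weeks of load, while baseline littermates of both genotypes were not operated on. The labels name no sham group, so load and surgery cannot be told apart, the sex of the baseline animals is not stated in the labels, and the replicates are numbered without a statement that each was a separate mouse. In bulk tissue, fewer cells of a type and less RNA per cell cannot be told apart.

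Aortic banding narrows the vessel that the left ventricle pumps into. The loaded ventricle is known to enlarge its muscle cells, to return to genes of the fetal heart and to lay down matrix made by fibroblasts. Junctophilin-2 joins the transverse tubules of heart muscle cells to the sarcoplasmic reticulum. Its N-terminal fragment, JP2NT, is known to be released when the protease calpain cuts the protein in stressed cells, and to enter the nucleus.

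The deposited tables name Ensembl transcripts, and 0 of their IDs could be matched to a gene symbol in the tables used here. The members are therefore described by level, ratio, length and rank, 4 of them by ID, and the gene lists, the cell type markers and the transgene's own messenger RNA were not checked. Total estimated counts per library ran from 37662212 to 53097801. The mean estimated count of a member in banded controls ran from 3.53 to 105115 with a median of 695, and values of the few members at the lower end are imprecise.

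The rule bounded the members' ratios at 2 or more in control and under 1.5 in JP2NT-OE, while their abundance covered a wide range. Their mean level in banded controls ran from 5.01 to 1042 TPM with a median of 11.5 TPM, and 146 lay under 10 TPM, 141 from 10 to under 50 TPM and 41 at 50 TPM or more. The ratio of banded to baseline controls had a median of 2.28, with the middle part of the list between 2.10 and 2.74 (quartiles). It lay under 2.5 in 221 members, from 2.5 to under 4 in 81 and at 4 or more in 26. The JP2NT-OE ratio had a median of 1.30, with quartiles of 1.16 and 1.404. The banded mean lay 25% to 50% above the baseline mean in 190 members, by less than 25% above it in 103 and under it in 35, so most members stood somewhat higher after banding in JP2NT-OE hearts too.

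**Figure D1:**
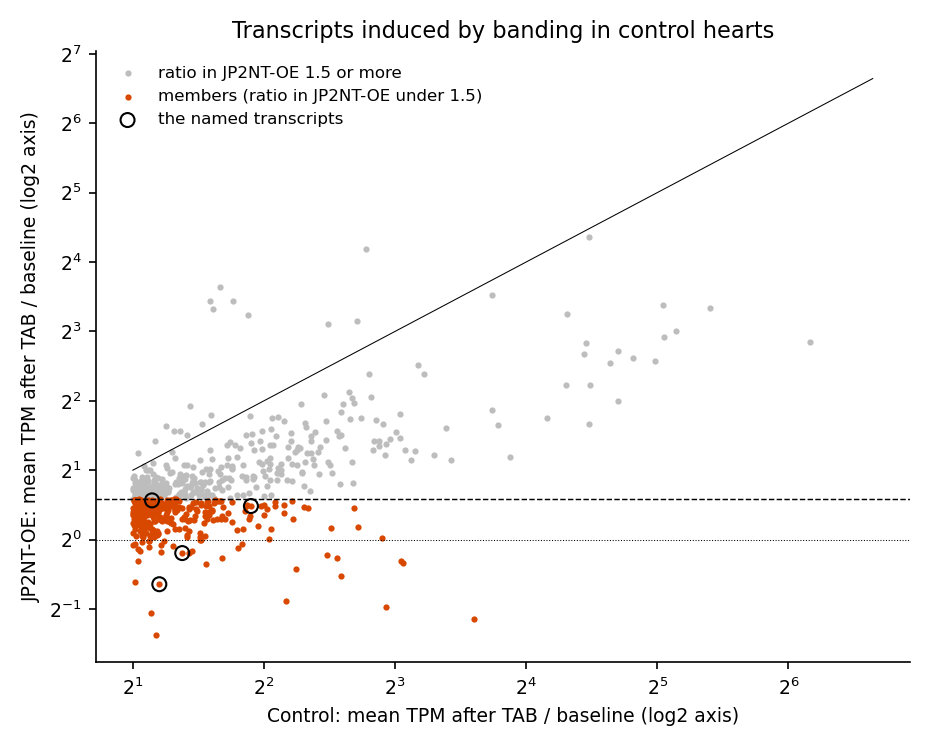
Each point is a transcript induced in control, with its ratio of mean TPM after TAB to baseline in control on the x axis and in JP2NT-OE on the y axis (both log2 axes). Members lie under the dashed line at 1.5, the solid line marks equal ratios, the dotted line marks a ratio of 1, and open circles are the 4 named transcripts. Of 692 transcripts, 5 (1 of them a member) are not drawn because a ratio was over 100 in control or could not be placed on a log axis. Most members lie at control ratios under 2.5.

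Values near the thresholds show how closely the members border on other transcripts. The members nearest to the control threshold had control ratios of 2.0011 and 2.0018, and the nearest transcripts outside it had 1.998 and 1.997. At the JP2NT-OE threshold the nearest members had ratios of 1.498 and 1.496, and the nearest induced transcripts outside had 1.501 and 1.504. At the abundance threshold the nearest values were 5.013 and 5.019 TPM inside and 4.997 and 4.988 TPM outside.

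The group means of most members followed 1 order. The rule used these same means and by itself puts control TAB above control baseline, so the order is only a description. In 272 of 328 members (82.9%) the control baseline mean was lowest, followed by JP2NT-OE baseline, JP2NT-OE TAB and control TAB. In 28 members the 2 middle groups were exchanged, with JP2NT-OE TAB under JP2NT-OE baseline, and in 17 the baseline means were exchanged, with JP2NT-OE under control. With the control baseline mean set to 0% and the control TAB mean to 100%, the JP2NT-OE baseline mean stood at a median of 13.4% (quartiles 7.36% and 23.6%) and the JP2NT-OE TAB mean at a median of 39.0% (quartiles 28.4% and 50.6%). In 86 members banded JP2NT-OE hearts stood above 50% of the control rise. The increase within JP2NT-OE was a median of 25.3% of the increase within control. For the other 364 transcripts induced in control, JP2NT-OE stood at a median of 3.08% at baseline and 52.3% after banding.

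Library by library the members showed the same order, in the libraries that also chose them. Relative to its own control baseline mean, the median member stood at 0.941, 1.03 and 1.02 in control baseline replicates 1, 2 and 3 and at 2.24, 2.38 and 2.27 in control TAB replicates 1, 2 and 3. It stood at 1.13, 1.14 and 1.22 in the JP2NT-OE baseline libraries and at 1.65, 1.59 and 1.33 in the JP2NT-OE TAB libraries. On this measure the 4 groups did not overlap, and replicate 3 was the lowest of the banded JP2NT-OE libraries. In 214 members replicate 3 was the lowest of the banded JP2NT-OE libraries, compared with 50 for replicate 1 and 64 for replicate 2. That library was low beyond the members. The other transcripts induced in control had medians of 2.30, 2.22 and 1.63 in banded JP2NT-OE replicates 1, 2 and 3, and all transcripts of at least 5 TPM in banded controls had 1.16, 1.15 and 1.07. Without this library 269 transcripts met the rule, of which 256 were among the 328.

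**Figure D2:**
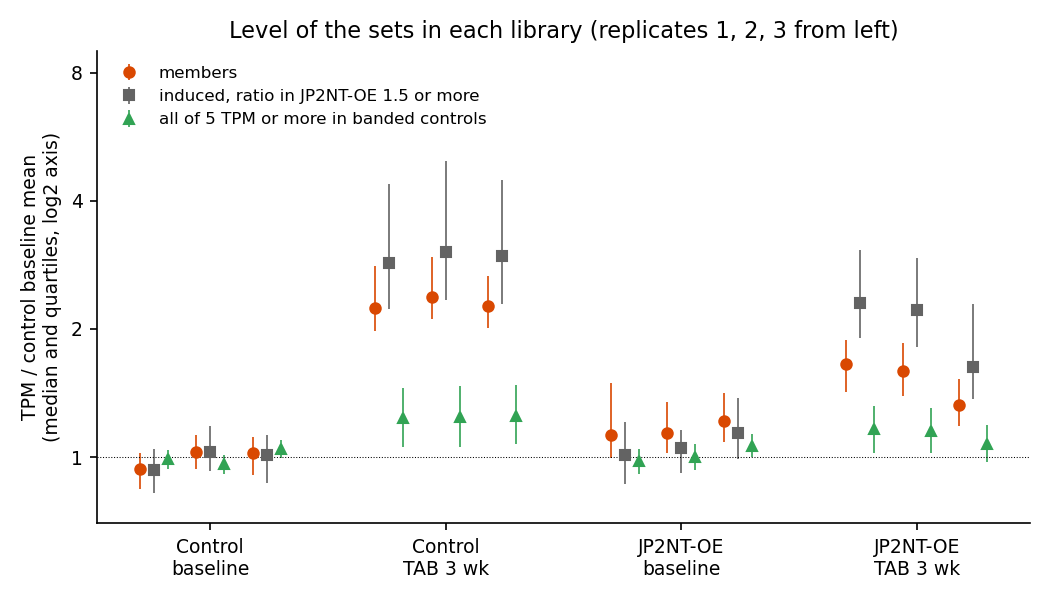
Median and quartiles (bars) of TPM divided by the transcript's control baseline mean, on a log2 axis, for each of the 12 libraries, with replicates 1, 2 and 3 from left to right in each group. Circles are the 328 members, squares the other transcripts induced in control with a control baseline mean above 0 (n = 363) and triangles all such transcripts of at least 5 TPM in banded controls (n = 10174). The members stand at 2.24 to 2.38 in banded controls and at 1.33 to 1.65 in banded JP2NT-OE hearts.

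The most abundant member was ENSMUST00000027409.9, a transcript of 3028 bases. It stood at 448, 468 and 497 TPM in control baseline replicates 1, 2 and 3 and at 953, 1213 and 960 TPM in control TAB replicates. In JP2NT-OE it stood at 502, 464 and 532 TPM at baseline and at 815, 735 and 667 TPM after TAB. The baseline libraries of the genotypes overlapped, and every banded JP2NT-OE library lay between the baseline libraries and the lowest banded control. The means were 471 ± 24.4 and 1042 ± 148 TPM in control and 499 ± 34.2 and 739 ± 74.0 TPM in JP2NT-OE (SD, n = 3), which are ratios of 2.21 and 1.48. With edgeR's TMM factors its log2 fold changes with banding were 0.83 (SE 0.10) in control and 0.40 (SE 0.10) in JP2NT-OE.

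The second most abundant member, ENSMUST00000103231.4 of 781 bases, varied far more between libraries of a group. Control baseline replicates 1, 2 and 3 stood at 117, 569 and 89.2 TPM and control TAB replicates at 635, 1330 and 930 TPM. JP2NT-OE baseline replicates stood at 508, 375 and 262 TPM and JP2NT-OE TAB replicates at 670, 439 and 492 TPM. Control baseline replicate 2 alone stood near the JP2NT-OE libraries, and the JP2NT-OE groups overlapped each other. The control ratio of 3.73 (log2 1.90) became 3.22 on the log2 scale without control baseline replicate 2, while the JP2NT-OE ratio was 1.398. The highest banded JP2NT-OE library lay above the lowest banded control library, so the genotypes overlapped after TAB.

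The member ranked 3 by level in banded controls, 1811 bases long, stood at 222, 259 and 232 TPM in control baseline, 684, 811 and 595 TPM in control TAB, 263, 291 and 274 TPM in JP2NT-OE baseline and 485, 343 and 267 TPM in banded JP2NT-OE libraries. Its banded JP2NT-OE libraries spread from the baseline range upwards, with replicate 3 within it. The members ranked 4 and 5, both 1002 bases long, had identical values in every library, with means of 151 TPM in control baseline, 308 TPM in control TAB, 162 TPM in JP2NT-OE baseline and 229 TPM in banded JP2NT-OE hearts. In all, 4 members formed 2 pairs with identical values, so the list held 326 separate sets of values. The member ranked 7, 2398 bases long, stood at 26.9, 80.2 and 22.8 TPM in control baseline, 143, 375 and 222 TPM in control TAB, 177, 37.5 and 35.0 TPM in JP2NT-OE baseline and 105, 86.2 and 88.5 TPM in banded JP2NT-OE libraries. In it, JP2NT-OE baseline replicate 1 lay above all 3 banded JP2NT-OE libraries and the other 2 baseline libraries lay under them, with a ratio of the means of 1.12.

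In 35 members the banded JP2NT-OE mean lay under the JP2NT-OE baseline mean, and the 2 most abundant of these are named here. ENSMUST00000029846.4, of 2019 bases, stood at 16.5, 33.9 and 15.97 TPM in control baseline and 60.1, 72.6 and 39.5 TPM in control TAB replicates 1, 2 and 3. It stood at 44.99, 22.2 and 17.5 TPM in JP2NT-OE baseline and 26.0, 20.2 and 27.7 TPM in banded JP2NT-OE replicates. Every banded JP2NT-OE library lay under every banded control library and within the range of the JP2NT-OE baseline libraries, of which replicate 1 was high. Without that replicate the log2 JP2NT-OE ratio turned from -0.19 to 0.31.

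ENSMUST00000020692.6, of 2743 bases, stood at 12.1, 19.999 and 15.03 TPM in control baseline and 53.1, 34.3 and 21.1 TPM in control TAB replicates 1, 2 and 3. It stood at 42.7, 20.7 and 14.4 TPM in JP2NT-OE baseline and 12.6, 14.2 and 23.1 TPM in banded JP2NT-OE replicates. JP2NT-OE baseline replicate 1 was again the high library, and the banded libraries of both genotypes overlapped. The log2 JP2NT-OE ratio was -0.64, and -0.081 without that replicate.

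**Figure D3:**
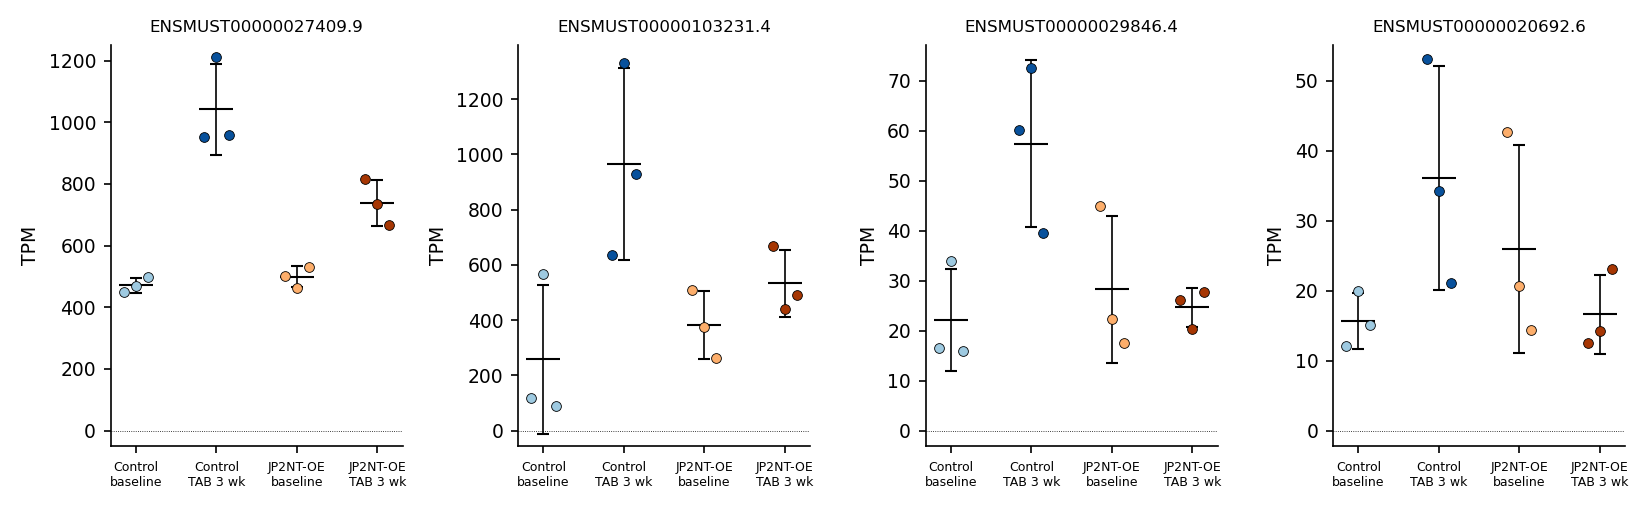
TPM of the 4 named members in each library (points, replicates 1, 2 and 3 from left to right) with the group mean and SD (bars, n = 3). In ENSMUST00000027409.9 the banded JP2NT-OE libraries lie between 667 and 815 TPM, under the banded controls, while in ENSMUST00000029846.4 and ENSMUST00000020692.6 JP2NT-OE baseline replicate 1 lies above the other 2 libraries of its group.

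Single libraries stood out in a minority of members. JP2NT-OE baseline replicate 1 was at least 1.5 times both other libraries of its group in 31 of 328 members (9.45%), control baseline replicate 2 in 28 (8.54%), and JP2NT-OE TAB replicate 3 was under both others by that factor in 34 (10.4%). These shares were 5.22%, 11.5% and 28.0% over the other 364 transcripts induced in control. Over all transcripts of at least 5 TPM in banded controls they were 1.34%, 1.27% and 3.03%. The 26 members with a control ratio of 4 or more held many of these, with control baseline replicate 2 high in 12 and JP2NT-OE baseline replicate 1 high in 8. Relative to the control baseline mean, these 26 had medians of 2.60, 1.79 and 1.84 in JP2NT-OE baseline and 2.49, 2.58 and 1.84 in banded JP2NT-OE libraries, so the 2 groups overlapped. In banded controls their medians were 5.34, 5.69 and 4.98.

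Among all 328 members, 6 had a control baseline mean under 1 TPM and 2 had a control ratio of 10 or more. Those 2 had means of 187 and 227 estimated counts in banded controls, under the median of 695 over all members. High ratios were not confined to few counts, since the member ranked 7 had a control ratio of 5.71 and a mean of 19778.5. One of the 2, 471 bases long, stood at 27.3, 5.94 and 20.8 TPM in banded controls and at 7.08, nearly 0 and 3.11 TPM in JP2NT-OE baseline libraries. Its control baseline libraries held at most 0.022 estimated counts, so its fold is not determined. In 5 members some library was at 0 TPM, and 1 of these, 126 bases long with a mean of 3.53 estimated counts in banded controls, did not pass the filter on low counts.

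Genotype differences of the members were larger after banding than at baseline. At baseline the ratio of JP2NT-OE to control means had a median of 1.18 (quartiles 1.09 and 1.39), and after banding it had a median of 0.653 (quartiles 0.572 and 0.722). In the other 364 transcripts induced in control these medians were 1.06 and 0.700. In all transcripts of at least 5 TPM in banded controls they were 1.02 and 0.906. The JP2NT-OE baseline mean lay above the control baseline mean in 309 of 328 members (94.2%). The banded JP2NT-OE mean lay under the banded control mean in 324 (98.8%). These shares were 68.4% and 96.2% in the other 364 transcripts induced in control. In all transcripts of at least 5 TPM in banded controls they were 59.4% and 77.4%. On the log2 scale, the gap after TAB was wider than the gap at baseline in 270 members and narrower in 58. In those 58 the median library ratios to the control baseline mean were 1.60, 1.55 and 1.52 in JP2NT-OE baseline, 1.91, 2.06 and 1.79 in banded JP2NT-OE and 2.37, 2.59 and 2.33 in banded control libraries. Both gaps were used by the rule, which keeps transcripts that are low in control baseline, high in control TAB, high in JP2NT-OE baseline or low in JP2NT-OE TAB.

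**Figure D4:**
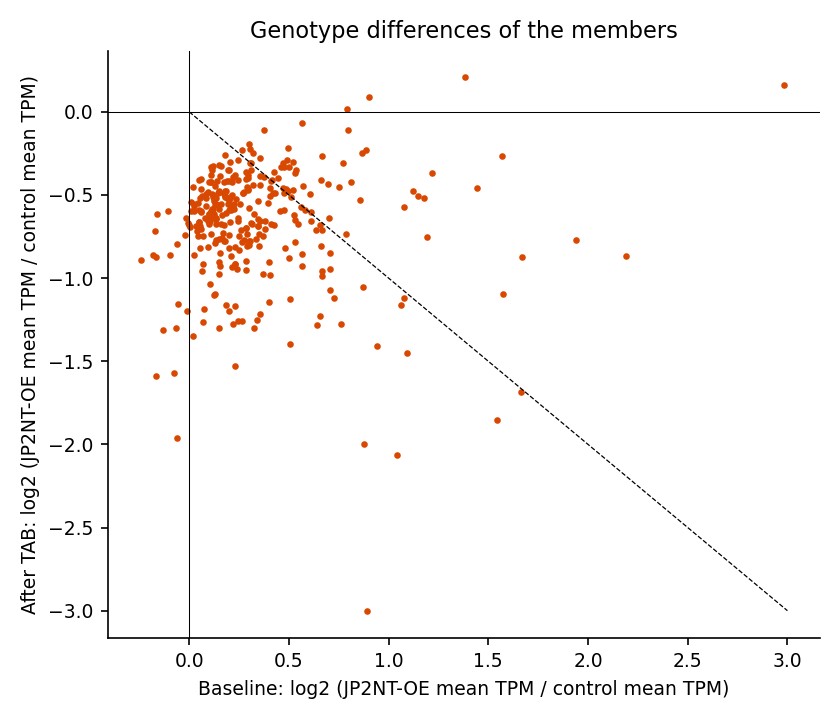
Each point is a member, with the log2 ratio of JP2NT-OE to control mean TPM at baseline on the x axis and after TAB on the y axis. Points under the dashed line have a wider gap after TAB than at baseline, and 2 members with a baseline value over 3 are not drawn. Most points lie right of 0 and under 0, with medians of 0.24 and -0.61.

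Separation of the libraries gave the same picture, again as a description. All 3 banded JP2NT-OE libraries lay under all 3 banded control libraries in 236 members (72.0%), against 16.4% of all 43256 tested transcripts. All JP2NT-OE baseline libraries lay above all control baseline libraries in 75 members, against 5.1% of all tested, and under them in 0, against 3.93%. Within JP2NT-OE, all banded libraries lay above all baseline libraries in 109 members (33.2%), against 17.6% of all tested transcripts. They lay under them in 1 member, against 3.84% of all tested. All banded JP2NT-OE libraries lay above all control baseline libraries in 211 members (64.3%), against 19.9%. Over all transcripts of at least 5 TPM in banded controls, all banded JP2NT-OE libraries lay under all banded control libraries in 31.4%. They lay above all JP2NT-OE baseline libraries in 31.8% and above all control baseline libraries in 37.5%. In the other 364 transcripts induced in control these shares were 56.9%, 83.5% and 85.7%, in the same order. Since the group means chose the members, nothing is read from these counts.

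The test across all transcripts, edgeR's quasi-likelihood test with Benjamini-Hochberg adjustment over 43256 transcripts, covered 327 of the 328 members. For banding in control it called 218 members higher at an adjusted p under 0.05, against 4.16% of all tested transcripts, and 0 lower, against 4.45%. At an unadjusted p under 0.05, 299 were higher (background 11%) and 0 lower (background 11.1%). Without control baseline replicate 1 it called 142. For banding in JP2NT-OE it called 0 members, against 0.106% higher and 0.132% lower of all tested. There, 69 members were higher and 3 lower at an unadjusted p under 0.05 (background 6.09% and 5.93%). DESeq2 called 21 members, against 5.78% of all transcripts to which it gave an adjusted p, and limma on log2(TPM + 1) called 14, against 1.24%. The fit by edgeR without JP2NT-OE TAB replicate 3 called 5. The rule fixed both of these contrasts, so nothing is read from the counts.

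For genotype at baseline, edgeR called 0 members at an adjusted p under 0.05, against 0.00694% of all tested higher and 0% lower. At an unadjusted p under 0.05, 49 members were higher in JP2NT-OE (background 2.27%) and 0 lower (background 2.11%). DESeq2 called 5 higher, against 0.195%. For genotype after TAB, edgeR called 20 members lower in JP2NT-OE, against 0.132% of all tested, and 0 higher, against 0.319%. At an unadjusted p under 0.05, 180 were lower (background 4.54%) and 0 higher (background 5.89%). The 20 calls were not stable. They numbered between 1, without control TAB replicate 2, and 13, without control baseline replicate 2, when any 1 of the 12 libraries was left out, 4 with the replicate number as a block and 0 in a fit of the 6 banded libraries alone. DESeq2 called 107 lower, against 2.26%. The rule used these group means too, so nothing is read from the counts.

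The interaction compares the banding effects of the genotypes directly. It called 0 members with edgeR, against 0.00231% of all tested positive and 0% negative. At an unadjusted p under 0.05, 211 members had a lower effect in JP2NT-OE (background 4.29%) and 0 a higher one (background 4.36%). DESeq2 called 75 members lower, against 0.979%, and limma on log2(TPM + 1) called 4 lower, against 0.0185%. The edgeR fit called 3 without JP2NT-OE baseline replicate 1 and 1 without control TAB replicate 3. The median log2 difference of the members was -0.72, against 0.01 over all tested transcripts. Selection for a large control ratio and a small JP2NT-OE ratio sets this sign.

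The level of TPM values shifted as a whole with banding, and more so in controls. Over the 43256 tested transcripts the median log2 ratio of banded to baseline TPM was 0.32 in control and 0.17 in JP2NT-OE, and on CPM scaled by edgeR's TMM factors it was 0.006 and 0.0035. The 20 most abundant transcripts held 40.5% to 43.1% of the counts in control baseline, 34.6% to 35.2% in control TAB, 40.2% to 42.3% in JP2NT-OE baseline and 37.8% to 39.5% in banded JP2NT-OE libraries. The choice of members moved with the scale. With folds taken on TMM-scaled CPM, 132 transcripts met it, of which 97 were among the 328. The members' median log2 ratio was 1.19 in control and 0.37 in JP2NT-OE on the TPM scale, and 0.86 and 0.21 on the TMM-scaled CPM scale. Both medians stayed above 0 on either scale, while the control median no longer reached the value of 1 that the rule asks for on TPM. For JP2NT-OE over control, the members' median log2 ratios on TPM were 0.24 at baseline and -0.61 after banding. On TMM-scaled CPM they were 0.23 and -0.47.

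The control conditions of the rule use no JP2NT-OE library. Apart from the removal of 7 listed transcripts, the JP2NT-OE values of the 692 transcripts induced in control are therefore free of selection. Their JP2NT-OE ratio had a median of 1.53. It lay under 1.5 in 328 (47.4%), the members, and at 2 or more in 155 (22.4%). Over all transcripts of at least 5 TPM in banded controls these shares were 93.3% and 1.93%. The control ratio of the 692, by which they were chosen, had a median of 2.504. With the genotypes exchanged, 125 transcripts were induced in JP2NT-OE. Their control ratio had a median of 3.36, and it lay at 2 or more in 93 (74.4%) and under 1.5 in 22 (17.6%). Over all transcripts of at least 5 TPM in banded controls, the control ratio lay at 2 or more in 7.34% and under 1.5 in 78.0%. The median of their JP2NT-OE ratio, by which they were chosen, was 2.69. On TMM-scaled CPM, 132 of 328 transcripts induced in control (40.2%) stayed under 1.5 in JP2NT-OE, and 26 of 96 induced in JP2NT-OE (27.1%) stayed under 1.5 in control. Without JP2NT-OE TAB replicate 3, these numbers on the TPM scale were 269 of 692 (38.9%) and 44 of 221 (19.9%). Without JP2NT-OE baseline replicate 3 they were 290 of 692 (41.9%) and 46 of 184 (25%). The difference between the 2 shares was narrower in each of these 3 settings, and it was not tested.

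The share of induced transcripts that were members was lower at larger control ratios. The rule's limit on the JP2NT-OE ratio was the same at every control ratio. A JP2NT-OE ratio that rises along with the control ratio therefore lowers this share by itself. Control ratios close to the threshold may also be raised by variation between libraries, which was not tested. The shares are given as a description only. Members made up 64.2% of the 344 induced transcripts with control ratios under 2.5, 40.5% of the 200 with ratios from 2.5 to under 4 and 17.6% of the 148 with ratios of 4 or more. By abundance the shares were closer, at 49.3% of 296 under 10 TPM, 47.5% of 297 from 10 to under 50 TPM and 41.4% of 99 at 50 TPM or more.

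The rule was also applied with 1 library left out, and the transcripts so chosen were read in that library. When the rule was applied without 1 control TAB library, the median control ratio of the transcripts so chosen was 2.05, 2.26 and 2.11 in left-out replicates 1, 2 and 3, compared with 2.30, 2.31 and 2.30 in the libraries kept. Between 54.8% and 66.7% of them reached a ratio of 2 in the left-out library, against 6.88% to 7.65% of all transcripts of at least 5 TPM in banded controls. When 1 JP2NT-OE TAB library was left out, the median JP2NT-OE ratio was 1.43 and 1.403 in left-out replicates 1 and 2, compared with 1.28 in the libraries kept in both cases, and 1.15 in left-out replicate 3, compared with 1.30. All transcripts induced in control had medians of 1.64, 1.63 and 1.30 in those 3 libraries. Each ratio divides by the JP2NT-OE baseline mean, which the choice also used, so the lower medians of the chosen transcripts are partly set by the choice. For JP2NT-OE baseline replicates 1, 2 and 3 left out in turn, the median JP2NT-OE ratio was 1.42, 1.39 and 1.27. In the libraries kept it was 1.28, 1.27 and 1.27. With JP2NT-OE TAB replicates 1, 2 and 3 left out in turn, 57.4%, 60.8% and 89.2% of the chosen transcripts lay under 1.5. Over all transcripts of at least 5 TPM in banded controls these shares were 89.8%, 90.6% and 95.2%. With JP2NT-OE baseline replicates 1, 2 and 3 left out they were 60.8%, 66.8% and 79.3%, against 89.3%, 90.4% and 93.0%. With a control baseline library left out, the median control ratio was 2.40, 2.08 and 2.098 for replicates 1, 2 and 3, compared with 2.30, 2.32 and 2.296 in the libraries kept. The other libraries stayed in the choice each time, so these values are not fully free of it.

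Features that the rule did not use were much alike in members and in the other transcripts induced in control. Transcript length had a median of 1744 bases in members (range 65 to 14888), 1688 bases in the other 364 induced transcripts and 2072 bases in all 10176 transcripts of at least 5 TPM in banded controls. Transcripts under 1000 bases made up 30.5%, 34.3% and 23.6% of these sets, and those of 3000 bases or more made up 26.5%, 25.8% and 32.3%. Estimated counts were whole numbers in all 12 libraries, within 0.001, in 38 members (11.6%), in 9.89% of the other induced transcripts and in 12.0% of all transcripts of at least 5 TPM. A fractional count shows that reads were divided among transcripts, so for the other 290 members part of the value rests on how the authors' software divided them. Among whole-count transcripts the members made up 51.4% of those induced in control (38 of 74), and among the others 46.9% (290 of 618).

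The spread within groups was wider in members than in all transcripts of at least 5 TPM in banded controls. The median coefficient of variation was 15.03% in control baseline, 14.4% in control TAB, 15.9% in JP2NT-OE baseline and 16.8% in banded JP2NT-OE libraries. For the latter it was 8.65%, 8.11%, 8.28% and 8.86%, and for the other induced transcripts it was 18.9%, 15.2%, 18.3% and 22.5%.

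**Figure D5:**
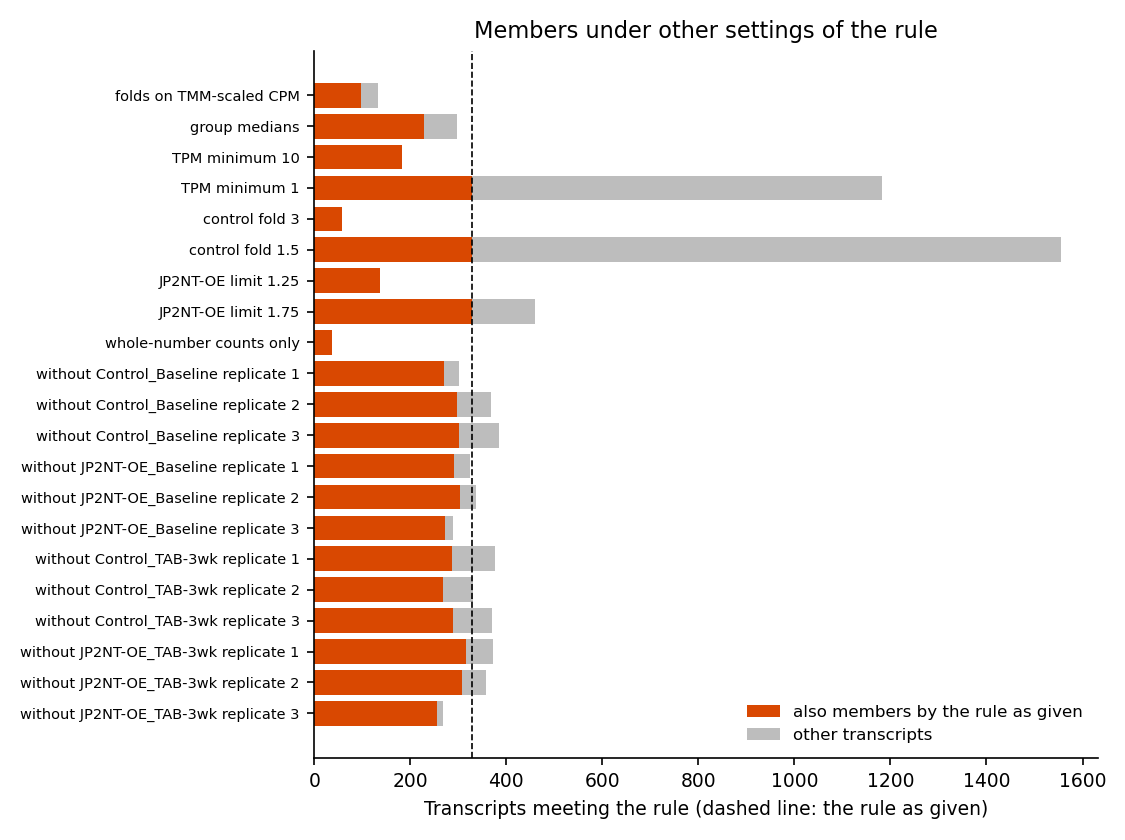
Number of transcripts that met the rule under each other setting (bars), divided into those also chosen by the rule as given and other transcripts, with the dashed line at 328. Leaving out 1 library gave 269 to 384 transcripts, TMM-scaled CPM gave 132, and JP2NT-OE limits of 25% and 75% above baseline in place of 50% gave 138 and 460.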

How the data were processed

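Left ventricular RNA of 12 of the series' 19 samples was analysed, and the other 7, from chromatin immunoprecipitation, were not used. Kallisto 0.42.5 is among the tools in the submitters' processing notes, which give no roles, and the annotation release is not given in the sources used here. Per the file headers, the authors deposited an estimated count and a TPM value for each of 96626 transcripts per library. Many of the counts are not whole numbers. TPM was used as deposited for the rule, with no pseudocount. The rule leaves out 7 listed transcripts, which are not reported here.

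Rounded estimated counts entered edgeR 4.0.16 under R 4.3.3 (filterByExpr, TMM factors, 1 mean per group over 12 libraries, 8 residual degrees of freedom), which kept 43256 transcripts. Standard errors come from the fold change and its F statistic. Alternatives used DESeq2 1.42.0, limma 3.58.1 on log2(TPM + 1) and log2(TPM + 0.1), library totals, no filter, a replicate block, other thresholds of the rule, and each library left out. P-values reflect only how far these libraries differ, which may be technical.

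The members and lists were chosen with earlier results of these data known. The named transcripts are the 2 members of highest mean TPM in banded controls with a JP2NT-OE ratio of 1 or more and the 2 with a ratio under 1, since IDs could not be matched to symbols. Members given by rank or by an extreme value were picked after their values were seen. Gene lists and cell type markers were not run for the same reason.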

Additional observations from a re-analysis of the deposited data

Results flagged for a closer look

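In 1 member, 879 bases long, every banded control library lay above the control baseline libraries and every banded JP2NT-OE library lay under the JP2NT-OE baseline libraries, so the genotypes moved in opposite directions without overlap. It stood at 8.42, 4.30 and 14.9 TPM in control TAB and at 7.63, 4.49 and 7.14 TPM in JP2NT-OE baseline libraries, compared with 2.93, 1.496 and 4.31 TPM in JP2NT-OE TAB libraries. The highest control baseline library was at 1.17 TPM. The difference between the genotypes was not tested for this transcript on its own, which was picked for this pattern among 328. It was part of the fit over all transcripts, where edgeR's interaction called 0 of 327 members. Its mean of 227 estimated counts in banded controls and at most 34.8 in a control baseline library limits the precision of its folds.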

How the results depend on the processing

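The number of transcripts that met the rule ranged from 269 to 384 when 1 library was left out. It was 132 with folds on TMM-scaled CPM, 182 and 1183 with TPM minimums of 10 and 1, 58 and 1555 with control folds of 3 and 1.5, 138 with a JP2NT-OE limit of 25% above baseline and 38 with whole-number counts only. Identical values counted once, an alternative chosen after seeing the data, gave 326, and group medians gave 298, of which 229 were among the 328. The members called numbered 142 to 209 for banding in control, 0 to 5 for banding in JP2NT-OE, 0 to 0 for genotype at baseline, 1 to 13 for genotype after TAB and 0 to 3 for the interaction when 1 library was left out. DESeq2 called 21 members for banding in JP2NT-OE, 5 for genotype at baseline, 107 for genotype after TAB and 75 for the interaction. For banding in JP2NT-OE, library totals gave 4 and limma gave 14 with either pseudocount. For genotype after TAB, no filter gave 10, limma gave 67 and 40 with pseudocounts of 1 and 0.1, and the 6 banded libraries alone gave 0 (edgeR, 185 with an unadjusted p under 0.05). For the interaction, limma gave 4 with either pseudocount. The log2 JP2NT-OE ratio of ENSMUST00000029846.4 ran from -0.45 to 0.31 when 1 library was left out and was above 0 without JP2NT-OE baseline replicate 1 alone, and the other 3 named members kept the sign of both ratios under all settings run. The cause of these changes was not tested, apart from the settings that by construction keep fewer or more transcripts.

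No pairing by replicate number was seen, and 3 libraries per group cannot exclude it. Correlations of deviations between same-numbered libraries ran from -0.093 to 0.086 over the 4 comparisons of 2 groups. Between libraries of different number they ran from -0.134 to 0.105. With the replicate block, 4 members were called for genotype after TAB, 194 for banding in control and 0 in the other comparisons. Depth limits the members of few counts, down to a mean of 3.53 in banded controls, and TPM itself carries no depth.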
